A study of Mus musculus with 9 samples.

Results

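The 9 genes described here are active before innervation, held down away from the junction by the nerve's activity and raised again after denervation. They are 4 subunits of the muscle acetylcholine receptor (Chrna1, Chrnb1, Chrnd and Chrng), the receptor kinase Musk and the myogenic factors Myog and Myod1. The others are the transcription factor Runx1 and the adhesion molecule Ncam1. All 9 were taken by name from the platform's annotation of probe sets, and each has 1 probe set among the 19505 genes named on the array. RNA of whole tibialis anterior, the fast muscle at the front of the shin, had been hybridised to 9 Clariom S mouse arrays, 3 per genotype, from C57/BL6 mice 2 months old. The genotypes were control (MCU+/+/MCUb+/+), MCU knockout (MCU-/-/MCUb+/+) and MCUb knockout (MCU+/+/MCUb-/-). MCU forms the pore through which calcium enters mitochondria, and MCUb is its paralogue in the same complex. Whether the deletions were limited to muscle, the sex and litter of the mice, and whether samples of a group were separate animals are not given in the sources used here. The p-values therefore weigh differences against the scatter of these samples, part of which may be technical.

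At an innervated junction the receptor is a pentamer of alpha, beta, delta and epsilon subunits, and before innervation the gamma subunit, encoded by Chrng, takes the place of epsilon, encoded by Chrne. Agrin from the nerve acts through LRP4 on the kinase MuSK, and rapsyn gathers the receptors beneath the nerve ending. Away from the junction, electrical activity and the calcium that follows it hold down Myog and, through it, the receptor genes, and denervation releases them. The receptor genes are read out mainly by the few nuclei under the nerve ending, so in RNA of a whole muscle fewer such nuclei and less RNA per nucleus cannot be told apart.

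The myogenic factors bind E-boxes (CANNTG), and factors of the ETS family bind the N-box (CCGGAA) of genes transcribed under the nerve ending. The stretches before the start sites of the alpha subunit, of the gamma and epsilon subunits that replace each other, and of Myog are printed here. The 2 myogenic factors among the 9 genes and the receptor genes are known to be linked through E-boxes. Whether the letters marked here are the sites in use was not tested. Each stretch is the 250 bases before the start in the RefSeq table of GRCm38.p6, 5′ to 3′ on the gene's strand. E-box and N-box letters, searched on both strands, are in capitals. Chrna1 lies at chr2:73580339-73580588 (minus strand), Chrng at chr1:87205561-87205810 (plus), Chrne at chr11:70619195-70619444 (minus) and Myog at chr1:134289754-134290003 (plus).
Chrna1: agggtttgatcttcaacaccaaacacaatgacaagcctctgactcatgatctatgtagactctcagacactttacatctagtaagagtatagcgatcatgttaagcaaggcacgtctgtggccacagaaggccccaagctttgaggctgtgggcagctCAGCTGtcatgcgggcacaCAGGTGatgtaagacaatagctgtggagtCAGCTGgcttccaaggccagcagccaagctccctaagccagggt
Chrng: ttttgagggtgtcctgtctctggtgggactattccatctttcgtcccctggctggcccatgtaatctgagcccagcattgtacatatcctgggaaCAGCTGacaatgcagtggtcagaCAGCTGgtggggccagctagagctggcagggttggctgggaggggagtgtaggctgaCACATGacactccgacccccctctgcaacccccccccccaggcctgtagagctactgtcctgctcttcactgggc
Chrne: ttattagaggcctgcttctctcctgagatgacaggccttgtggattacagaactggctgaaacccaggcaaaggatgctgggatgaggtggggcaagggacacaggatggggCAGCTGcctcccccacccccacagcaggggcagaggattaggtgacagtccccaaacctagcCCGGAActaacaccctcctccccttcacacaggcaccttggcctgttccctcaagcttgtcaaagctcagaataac
Myog: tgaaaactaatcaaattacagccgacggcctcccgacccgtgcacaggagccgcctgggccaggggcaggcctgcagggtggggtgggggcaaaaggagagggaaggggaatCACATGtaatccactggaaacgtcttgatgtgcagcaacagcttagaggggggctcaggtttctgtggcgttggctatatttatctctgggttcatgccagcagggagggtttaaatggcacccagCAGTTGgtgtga

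In these stretches Chrna1 and Chrng each held 3 E-boxes, 2 of them with the letters CAGCTG, while Chrne held 1 E-box, also CAGCTG, and 1 N-box. Myog held 2 E-boxes, neither of them CAGCTG. Among 32841 such stretches of the table, 66.2% held at least 1 CANNTG, 13% at least 1 CAGCTG (a subset of CANNTG) and 12% at least 1 CCGGAA. More than 1 CANNTG was held by 31.8%, and more than 1 CAGCTG by 1.26%. Of the 9 genes, 6 were matched in the table, and Chrnb1 and Musk each had 3 E-boxes, 1 of which in Musk was CAGCTG. Runx1 has a pair of starts there, of which the distal one had 3 E-boxes and the proximal one 1 N-box. Chrnd, Myod1 and Ncam1 were not matched. Such letters describe the sequence and do not show that a factor is bound.

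The deposited values were read as log2 levels. Above background means higher than the 95th percentile of that array's 23 background sets, a limit between 5.87 and 5.92. The share of probe sets above background was alike on the arrays (45.3% to 45.9%). All 10 fibre markers were above background on every array, among them the fast myosin Myh4, the actin Acta1 and the creatine kinase Ckm. Mcu itself fell from 10.60 ± 0.31 (SD, n = 3) in control to 6.94 ± 0.13 in the MCU knockout, a log2 change of -3.65 (adjusted p = 3.47e-05 in limma). The transcript of the other deleted gene, Mcub, was not analysed here, which leaves the MCUb knockout label unchecked. Control replicate 3 stood apart from the other arrays, at -70.8 on a first principal component on which the rest lay between -20.3 and 21.9. Y-linked transcripts (mean of Uty and Kdm5d) were high on MCU knockout replicates 2 and 3 and MCUb knockout replicate 1, at 7.24 to 7.80 against 3.01 to 3.89 elsewhere. By these transcripts those arrays read as male and the others as female. No control array read as male, so sex was unbalanced between the groups. The knockout groups were unbalanced against each other as well. Differences from control and between the knockouts therefore cannot be fully told apart from differences by sex.

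None of the 9 genes passed the threshold in either knockout. With 3 arrays a group this does not show that they were unchanged. Between MCU knockout and control 0 of 9 passed an adjusted p of 0.05 in limma, where 0.14% of all probe sets passed. Between MCUb knockout and control 0 passed (0.0225% of all), and between the knockouts 0 passed (0.158% of all). At an unadjusted p under 0.05 the count was also 0 of 9 in each comparison, against 10.1%, 8.11% and 5.7% of all 22206 probe sets in that order. The median log2 change over the 9 was 0.04, -0.05 and 0.20, beside medians of -0.02, -0.03 and 0.01 over all probe sets. The first and the last of the medians of the 9 are the values of Chrng and Chrnd, which lay below background on all arrays, so nothing is read from them. Both comparisons with control share the same 3 control arrays. Exact permutation tests of single genes cannot go below p = 0.1 with 3 arrays against 3.

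**Figure D1:**
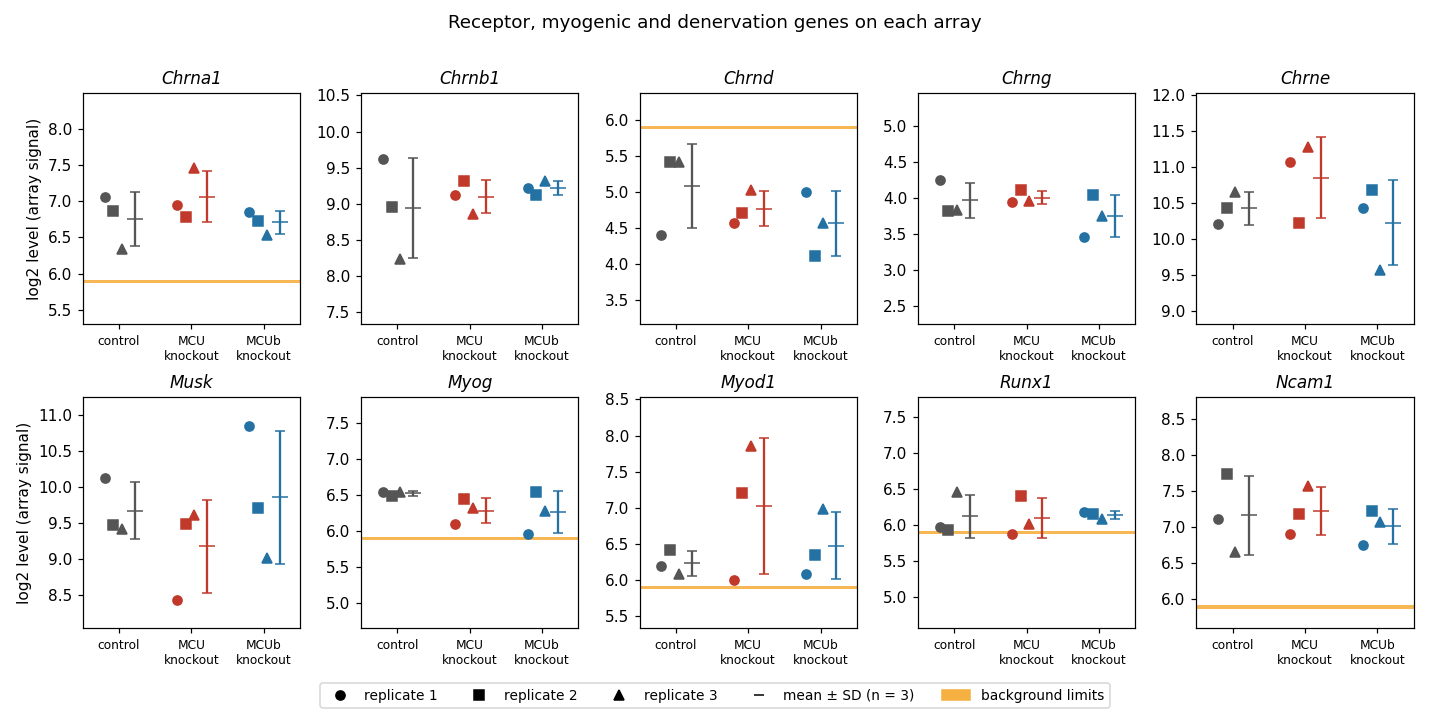
Log2 level (y axis, array signal) of the 9 genes and of the epsilon subunit gene Chrne on each of the 9 arrays, grouped by genotype on the x axis; symbols are replicates, bars the mean ± SD (n = 3), and the orange band, drawn where a panel reaches it, the background limits of 5.87 to 5.92. Every panel spans the same height; Chrnd and Chrng lie below the band on all arrays, and Myod1 and Musk scatter most.

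The receptor subunits fell into those seen above background on every array (Chrna1, Chrnb1) and those seen above it on none (Chrnd, Chrng). Chrna1, the subunit that carries most of the acetylcholine binding site (probe set TC0200003758.mm.2, chromosome 2), had log2 levels of 7.06, 6.86 and 6.34 in control, 6.95, 6.78 and 7.46 in the MCU knockout and 6.86, 6.73 and 6.54 in the MCUb knockout. The groups overlapped, with the single highest value on MCU knockout replicate 3. Its log2 change was 0.31 in the MCU knockout (SE 0.24, 95% interval -0.22 to 0.84, adjusted p = 0.686) and -0.05 in the MCUb knockout (interval -0.58 to 0.49, adjusted p = 0.972). The upper bounds correspond to a 1.79-fold and a 1.40-fold rise. Single arrays moved the first value, which dropped to 0.10 when control replicate 3 was omitted and to 0.11 for MCU knockout replicate 3, and reached 0.46 when control replicate 1 was omitted. Between the knockouts the difference was 0.36 (interval -0.18 to 0.89, unadjusted p = 0.168), and 0.16 without MCU knockout replicate 3.

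Chrnb1, the beta subunit, to which rapsyn couples the receptor (TC1100003063.mm.2, chromosome 11), stood at 9.62, 8.96 and 8.24 in control, 9.12, 9.31 and 8.86 in the MCU knockout and 9.22, 9.12 and 9.31 in the MCUb knockout. All 6 knockout values lay within the range of the control arrays, whose replicate 1 was highest and replicate 3 lowest of the 9. The changes from control were 0.16 (interval -0.50 to 0.81, adjusted p = 0.882) and 0.28 (interval -0.38 to 0.93, adjusted p = 0.812). Which control array was read decided their sign: without replicate 3 they were -0.19 and -0.07, and without replicate 1 they were 0.50 and 0.62. Within the control group Chrnb1 had an SD of 0.69, against 0.23 and 0.10 within the knockout groups.

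Chrng, the fetal gamma subunit (TC0100000810.mm.2, chromosome 1), was not above background on any array. Its values ran from 3.82 to 4.24 in control, from 3.95 to 4.10 in the MCU knockout and from 3.45 to 4.04 in the MCUb knockout. Chrnd, the delta subunit, its neighbour on chromosome 1 (TC0100000809.mm.2), was likewise below the limit everywhere, at 4.41, 5.43 and 5.42 in control, 4.57, 4.71 and 5.04 in the MCU knockout and 5.01, 4.12 and 4.58 in the MCUb knockout. Both sides of each comparison were under the limit, so no fold is given for either gene, and their fitted differences are differences of background signal, not of transcript level. The delta subunit is part of the adult receptor, so a probe set below the limit here marks what this array detects in whole muscle and not that the transcript was absent.

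Chrne, the adult epsilon subunit and no member of the 9, was above background on all arrays. Its levels were 10.20, 10.43 and 10.66 in control, 11.07, 10.22 and 11.27 in the MCU knockout and 10.43, 10.69 and 9.57 in the MCUb knockout. The MCU knockout held the highest pair of values and the MCUb knockout the lowest single value, and all groups overlapped. Its change was 0.42 in the MCU knockout (SE 0.33, adjusted p = 0.685) and -0.20 in the MCUb knockout (adjusted p = 0.890). The difference between the knockouts, 0.62 (interval -0.10 to 1.35), had an unadjusted p of 0.0841 and an adjusted p of 0.929. Without MCUb knockout replicate 3 that difference was 0.30, and without MCU knockout replicate 3 the change in the MCU knockout was 0.22. In all 3 genotypes the adult replacement subunit was measured above background and the fetal one was not. Chrnd, part of the adult receptor, was not above it either, so this does not tell which form of the receptor was made.

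Musk, the kinase that answers agrin and organises the postsynaptic membrane (TC0400000644.mm.2, chromosome 4), varied most of the 9 genes within groups, with an SD of 0.69 at the 97.7th percentile of all probe sets. It stood at 10.13, 9.47 and 9.42 in control, at 8.44, 9.49 and 9.61 in the MCU knockout and at 10.84, 9.72 and 9.02 in the MCUb knockout. The lowest and the highest value of the series were both on a replicate 1, of the MCU and of the MCUb knockout, and the other 7 arrays lay between 9.02 and 10.13. Its change was -0.49 in the MCU knockout (SE 0.44, interval -1.46 to 0.48, adjusted p = 0.727) and 0.19 in the MCUb knockout (interval -0.78 to 1.16, adjusted p = 0.929).

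Between the knockouts Musk differed by -0.68 (interval -1.65 to 0.29, unadjusted p = 0.152). Single arrays set the size of these differences. Without MCU knockout replicate 1 the change in the MCU knockout was -0.12, and without MCUb knockout replicate 1 the change in the MCUb knockout turned to -0.31. The difference between the knockouts was -0.19 without MCUb knockout replicate 1 and -1.10 without MCUb knockout replicate 3. With the mean level of Uty and Kdm5d as a covariate it was -1.27 in the MCU knockout (unadjusted p = 0.00336, adjusted p = 0.458), where its adjusted p over the 18 other settings ran from 0.458 to 0.953. The part of the Y-linked level in this difference was not tested further.

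Myog, the myogenic factor that drives receptor genes after denervation (TC0100001225.mm.2, chromosome 1), was the steadiest of the 9 genes. Its levels were 6.54, 6.49 and 6.55 in control, 6.10, 6.44 and 6.32 in the MCU knockout and 5.96, 6.54 and 6.28 in the MCUb knockout. All 3 MCU knockout values lay under all 3 control values, by a small margin, whereas the MCUb knockout overlapped with control. The change in the MCU knockout was -0.24 (SE 0.19, interval -0.67 to 0.19, adjusted p = 0.699; exact permutation p = 0.1, the smallest possible), and that in the MCUb knockout was -0.26 (interval -0.69 to 0.16, adjusted p = 0.728). The intervals end at a 1.14-fold rise in the MCU knockout and a 1.12-fold rise in the MCUb knockout. Without replicate 1 of the knockout concerned, the lowest of its group, the changes were -0.14 and -0.11.

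Of the 9 genes 1, Myog, had groups that did not overlap between MCU knockout and control, where 13.4% of all probe sets had groups that did not overlap. Between MCUb knockout and control, and between the knockouts, 0 of the 9 genes had such groups, against 12.8% of all probe sets in each. These counts are near or under the background.

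Myod1, the myogenic factor of satellite cells in activation and of fast fibres (TC0700000873.mm.2, chromosome 7), had the largest fitted change of the 9 genes from control. It stood at 6.19, 6.42 and 6.08 in control, 6.0, 7.21 and 7.86 in the MCU knockout and 6.08, 6.35 and 6.99 in the MCUb knockout. MCU knockout replicates 2 and 3 and MCUb knockout replicate 3 were above all controls, while MCU knockout replicate 1 was the lowest array of the series, so the groups overlapped. By the Y-linked level MCU knockout replicates 2 and 3 read as male (7.56 and 7.24) and replicate 1 as female (3.58). Within that group Myod1 therefore split with sex. In the MCUb knockout replicate 1, lowest of its group for Myod1, read as male (7.80), and replicate 3, the highest, as female (3.58). The part of sex in the Myod1 levels was not tested further. The change in the MCU knockout was 0.79 (SE 0.40, interval -0.09 to 1.67, unadjusted p = 0.0732, adjusted p = 0.536), and that in the MCUb knockout was 0.24 (interval -0.64 to 1.12, adjusted p = 0.890). Without MCU knockout replicate 1 the former was 1.30 (unadjusted p = 0.00152, adjusted p = 0.180), and without MCU knockout replicate 3 it was 0.37.

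Markers of other cell types were read beside Myod1. Pax7, which defines satellite cells, was below the background limit on every array (3.75 to 4.26), as were 3 other markers of that list. Mean levels over the 9 satellite cell markers were 5.54 to 5.70 in control, 5.40 to 5.77 in the MCU knockout and 5.47 to 5.72 in the MCUb knockout. The 3 arrays with Myod1 above all controls were also the 3 highest for the mean of the 5 measured of 6 macrophage and leukocyte markers, at 6.95, 7.08 and 7.20 against 6.29 to 6.73 elsewhere, of which Csf1r read 7.27, 8.01 and 7.18 there against 6.23 to 6.57. They were the 3 highest, too, for the mean of the 5 measured of 6 fibroblast markers, at 12.41, 12.08 and 11.79 against 10.78 to 11.58. Single markers did not all follow. Ptprc, of the macrophage and leukocyte list, read 6.51, 6.01 and 7.60 on these arrays against 6.51 to 7.55 elsewhere. Its lowest array was MCU knockout replicate 3. Of the fibroblast list, Dpt was highest on control replicate 3 (12.84). Col1a1 read 9.54 on control replicate 1, above MCU knockout replicate 3 (9.23) and MCUb knockout replicate 3 (8.45). By genotype the macrophage mean ran from 6.43 to 6.73 in control, 6.68 to 7.08 in the MCU knockout and 6.29 to 7.20 in the MCUb knockout. The mean of 6 regenerating fibre markers ran from 9.19 to 9.60, 9.51 to 10.23 and 9.42 to 9.59 in that order. Its level came from Myl4, Actc1 and above all Myh8 (19.20 to 19.84), and what the Myh8 probe set measures in adult muscle is uncertain. Myh3 and Mymx were below background on all arrays, so the level of this mean does not show regeneration. Mymk, the fusion protein of myoblasts, was above background on 1 array alone, MCU knockout replicate 3, at 6.87 against 4.47 to 5.46 on the others. The part of these cells in the Myod1 levels was not tested, and Csf1r, Ptprc, Dpt, Col1a1 and Mymk were picked out after their values were seen.

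Runx1, a transcription factor induced by denervation that limits wasting (TC1600002097.mm.2, chromosome 16), lay at the edge of detection. Its levels were 5.98, 5.93 and 6.47 in control, 5.87, 6.40 and 6.01 in the MCU knockout and 6.18, 6.15 and 6.08 in the MCUb knockout, and MCU knockout replicate 1 was under its array's limit. The highest value was on control replicate 3. The changes were -0.03 (interval -0.49 to 0.43, adjusted p = 0.977) and 0.02 (interval -0.44 to 0.47, adjusted p = 0.991), and their upper bounds correspond to 1.35-fold and 1.39-fold rises. So close to the limit, a fall cannot be read from this probe set.

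Ncam1, the neural cell adhesion molecule that spreads over the fibre surface after denervation and is also made by satellite cells and Schwann cells (TC0900002254.mm.2, chromosome 9), was above background throughout. It stood at 7.11, 7.74 and 6.65 in control, 6.91, 7.19 and 7.58 in the MCU knockout and 6.75, 7.23 and 7.07 in the MCUb knockout. Both knockout groups lay within the control range. The changes were 0.06 (interval -0.57 to 0.68, adjusted p = 0.965) and -0.15 (interval -0.78 to 0.47, adjusted p = 0.903). Without control replicate 3 the change in the MCU knockout was -0.20. Of the 7 measured Schwann cell and nerve markers, 3 were above background on any array and 1, Pmp22, on all. Their mean level was 5.59 to 5.88 in control, 5.55 to 5.79 in the MCU knockout and 5.47 to 5.58 in the MCUb knockout.

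**Figure D2:**
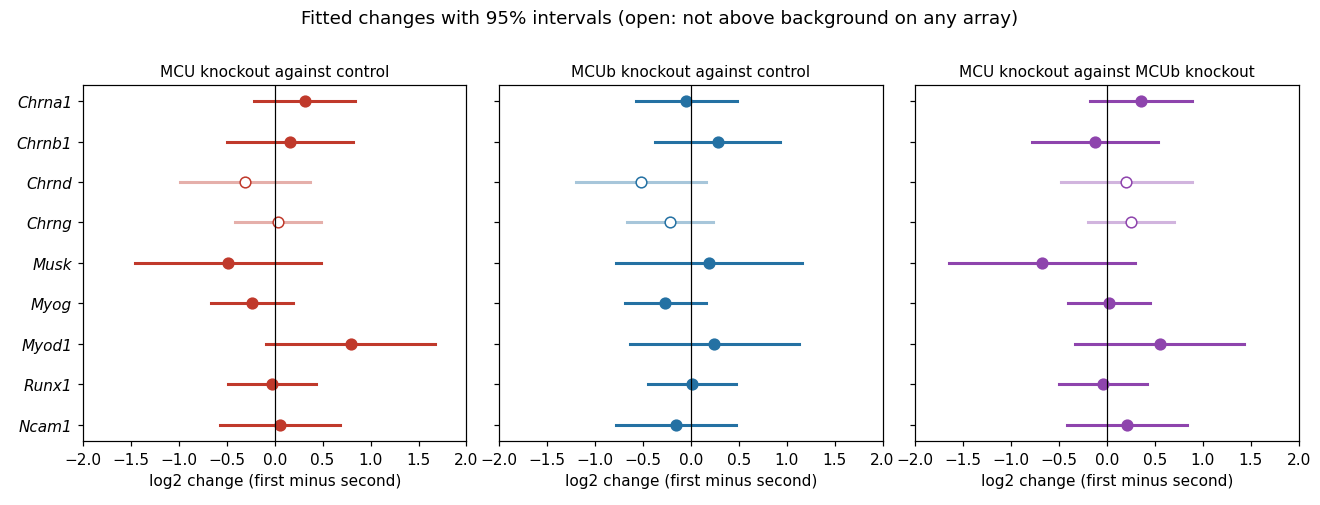
Fitted log2 change (x axis, first group minus second) with its 95% interval for each of the 9 genes (y axis) in the 3 comparisons. Every interval crosses 0; they are shortest for Myog and longest for Musk, and open circles mark Chrnd and Chrng, which were not above background on any array.

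The precision of the comparison differed between genes. For the 7 genes above background on some array, the highest upper bound in the MCU knockout was that of Myod1, a 3.19-fold rise, and in the MCUb knockout that of Musk, a 2.23-fold rise. The lowest bounds were those of Musk, a 2.75-fold fall in the MCU knockout and a 1.72-fold fall in the MCUb knockout. The intervals reached between 0.43 and 0.97 to either side of the fitted change on the log2 scale. The within-group SD of the 9 genes lay between the 21.5th and the 97.7th percentile of all probe sets, with a median of 0.40 against 0.29.

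Among the other genes of the pathway a single one passed. Of 53 further genes in 3 lists, 49 were measured: 20 of synapse assembly, 13 myogenic factors with their cofactors and inhibitors, and 16 of the denervation response. In the MCU knockout limma called 0 of 49 (5 at an unadjusted p under 0.05), in the MCUb knockout 0 rose and 1 fell (3 at an unadjusted p under 0.05), and between the knockouts 1 was higher in the MCU knockout (5 at an unadjusted p under 0.05). The shares of all probe sets were 0.14%, 0.0225% and 0.158% at an adjusted p under 0.05, and 10.1%, 8.11% and 5.7% at an unadjusted p under 0.05, in the same order. Median changes of the 49 were -0.03, -0.05 and 0.02 in that order, beside -0.02, -0.03 and 0.01 over all probe sets. The groups did not overlap for 7, 5 and 7 of the 49, where 13.4%, 12.8% and 12.8% of all probe sets had such groups. Separate groups of single genes named below are to be read beside these shares.

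**Figure D3:**
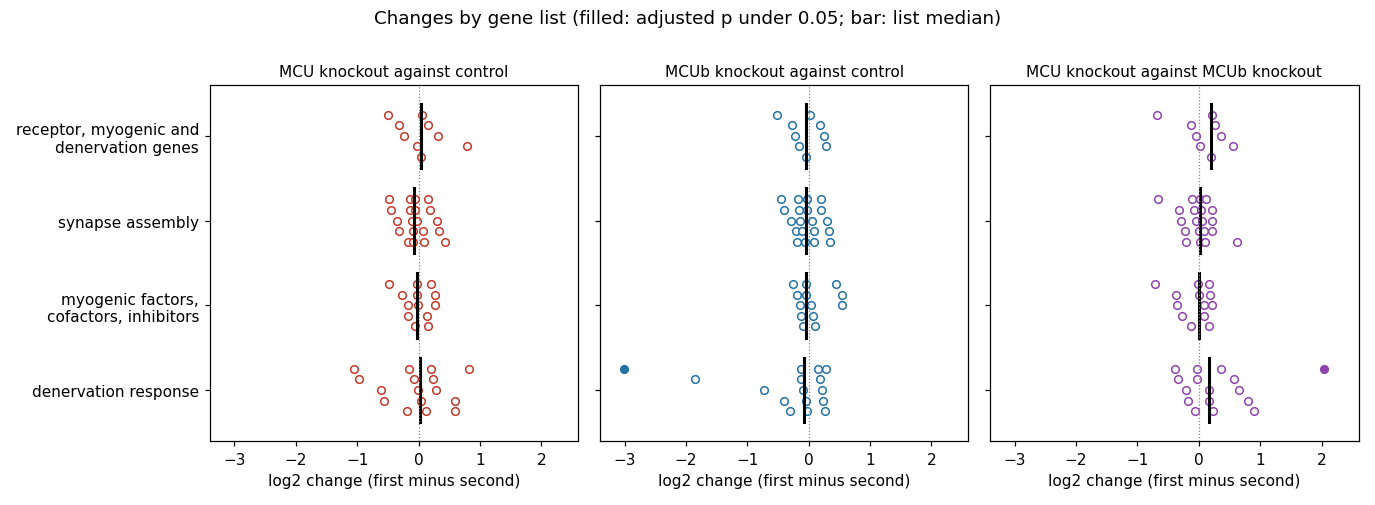
Log2 change (x axis, first group minus second) of each measured gene of the 9-gene set and of the 3 further lists (y axis) in the 3 comparisons; filled circles passed an adjusted p of 0.05 and black bars are list medians. The list medians lie between -0.08 and 0.20, the latter being the value of Chrnd, below background, and the only filled circle is Tnfrsf12a, at -3.01 in the MCUb knockout and 2.05 between the knockouts.

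In synapse assembly 0 of 20 genes passed in any comparison. Dag1, which encodes dystroglycan, an anchor of the fibre to its matrix and a receptor for agrin, was at 14.84, 14.71 and 14.57 in control, 14.57, 14.18 and 14.05 in the MCU knockout and 14.10, 14.40 and 14.25 in the MCUb knockout. All 6 knockout arrays were under all 3 controls, the highest of them by less than the rounding of these values. Its change was -0.44 in the MCU knockout (SE 0.19, unadjusted p = 0.0426, adjusted p = 0.474) and -0.45 in the MCUb knockout (unadjusted p = 0.0374, adjusted p = 0.590), against the same controls. With the mean level of Uty and Kdm5d as a covariate the former was -0.23 (adjusted p = 0.825). Lrp4, the agrin receptor, was at -0.48 in the MCU knockout (adjusted p = 0.660) and lay under its array's limit on 2 arrays. That value rested on control replicate 3, and was -0.058 without it. Crkl, an adaptor downstream of MuSK, was at -0.31 and 0.35 (-0.13 without MCU knockout replicate 2 and 0.20 without MCUb knockout replicate 2), and the difference between the knockouts was -0.66 (unadjusted p = 0.0186, adjusted p = 0.721). Colq, the collagen tail that anchors acetylcholinesterase, was at 0.34 in the MCUb knockout (adjusted p = 0.747) but at 0.087 without MCUb knockout replicate 1. Sntb1, a syntrophin of the dystrophin complex, was at -0.22 between the knockouts (unadjusted p = 0.257) and at -0.11 without MCUb knockout replicate 3.

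Among the myogenic factors and their partners 0 of 13 passed. Mef2d, a factor that works with the myogenic factors, was at 13.33, 12.94 and 13.49 in control and 12.70, 12.65 and 12.97 in the MCU knockout, a change of -0.48 (SE 0.21, unadjusted p = 0.0392, adjusted p = 0.474). The groups overlapped by a single array on each side. Id2, an inhibitor of E-box binding, differed by -0.71 between the knockouts (unadjusted p = 0.0137, adjusted p = 0.658), but it was above background on 2 MCUb knockout arrays and on no other. In the MCUb knockout Tcf12, an E protein that pairs with the myogenic factors, was at 0.53 (adjusted p = 0.638), and Id3, a further inhibitor, at 0.54 (adjusted p = 0.640). Single arrays moved both: Tcf12 was at 0.21 without control replicate 1 and 0.77 without control replicate 3, and Id3 at 0.20 without MCUb knockout replicate 1 and 0.90 without MCUb knockout replicate 3. Six4, a homeodomain activator of Myog, was at -0.17 in the MCU knockout (adjusted p = 0.735), and at -0.11 with the Y-linked covariate.

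In the denervation response Tnfrsf12a, the receptor for the cytokine TWEAK, which denervated muscle induces, was the gene that passed, and it was lower. Its levels were 14.62, 14.25 and 13.36 in control, 13.20, 12.80 and 13.33 in the MCU knockout and 10.81, 11.63 and 10.75 in the MCUb knockout. The MCUb knockout arrays lay under all others, and the MCU knockout arrays under all controls, by a narrow margin. It fell by 3.01 in the MCUb knockout (SE 0.34, interval -3.75 to -2.27, adjusted p = 0.0152). Its change of -0.96 in the MCU knockout did not pass (adjusted p = 0.393), and the difference between the knockouts was 2.05 (SE 0.34, adjusted p = 0.0489), which passed in 9 of 18 other settings. The fall in the MCUb knockout no longer passed without control replicate 1 (adjusted p = 0.106), without MCUb knockout replicate 1 (0.0735) or 3 (0.114), or when the 6 arrays of both groups were fitted alone (0.0987), while its size stayed between -3.37 and -2.74 over 18 other settings. The gene was known to have changed in these data when the list was drawn up, so its place there is not independent evidence.

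Fbxo32, the ubiquitin ligase atrogin-1, stood at 10.96, 11.71 and 11.40 in control, at 12.46, 11.79 and 12.27 in the MCU knockout and at 11.83, 10.84 and 11.13 in the MCUb knockout. All MCU knockout arrays were above all controls. The change there was 0.82 (SE 0.29, unadjusted p = 0.0179, adjusted p = 0.412), that in the MCUb knockout was -0.09 (adjusted p = 0.952), and the difference between the knockouts was 0.90 (unadjusted p = 0.0104, adjusted p = 0.615). Fbxo30, another ligase of muscle wasting, differed by 0.58 between the knockouts (unadjusted p = 0.0233, adjusted p = 0.744). Gdf5, a ligand induced by denervation that restrains wasting, was higher on every MCU knockout array than on any control, by 0.60 (unadjusted p = 0.00400, adjusted p = 0.309), but all 9 values, from 4.26 to 4.98, were below the background limit. Cdkn1a, a cell cycle inhibitor, was at -1.85 in the MCUb knockout (SE 0.64, unadjusted p = 0.0143, adjusted p = 0.535), and Ampd3, a deaminase of adenine nucleotides that denervation raises, at -0.73 (adjusted p = 0.694). Without MCUb knockout replicate 1 they were at -1.17 and -0.39, and without control replicate 2 Ampd3 was at -1.25.

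The embryonic myosin Myh3, a marker of regenerating fibres, was below background on all arrays (3.91 to 5.09), and so was Dach2, a repressor that links activity to Myog (3.46 to 4.55). Hdac4, the deacetylase that relieves repression of Myog after denervation, lay between 8.77 and 9.38 and overlapped across genotypes. The neonatal myosin Myh8 was read at 19.20 to 19.84, and because the sarcomeric myosin genes are close copies of each other, what its probe set measures in adult muscle is uncertain. These 4 genes were chosen for mention after their values were seen.

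Genes whose levels ran most nearly parallel over the 9 arrays were ranked by Pearson r, as a description with no test. For the mean of Chrna1 and Chrnb1, each centred on its own mean, these were Prpf38b (0.95), Jrkl (0.94) and Cog3 (0.94). For Myog they were Ankzf1 (0.95), Hilpda (0.91) and Tbx1 (0.91), and for Runx1 they were Fbxo6 (0.97), Med8 (0.94) and Sra1 (0.93). They were the highest of 7648 to 7650 candidates above background on every array, of which 15, 5 and 6 exceeded 0.9 in that order, and with 9 arrays that share 3 genotypes such values carry little weight.

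**Figure D4:**
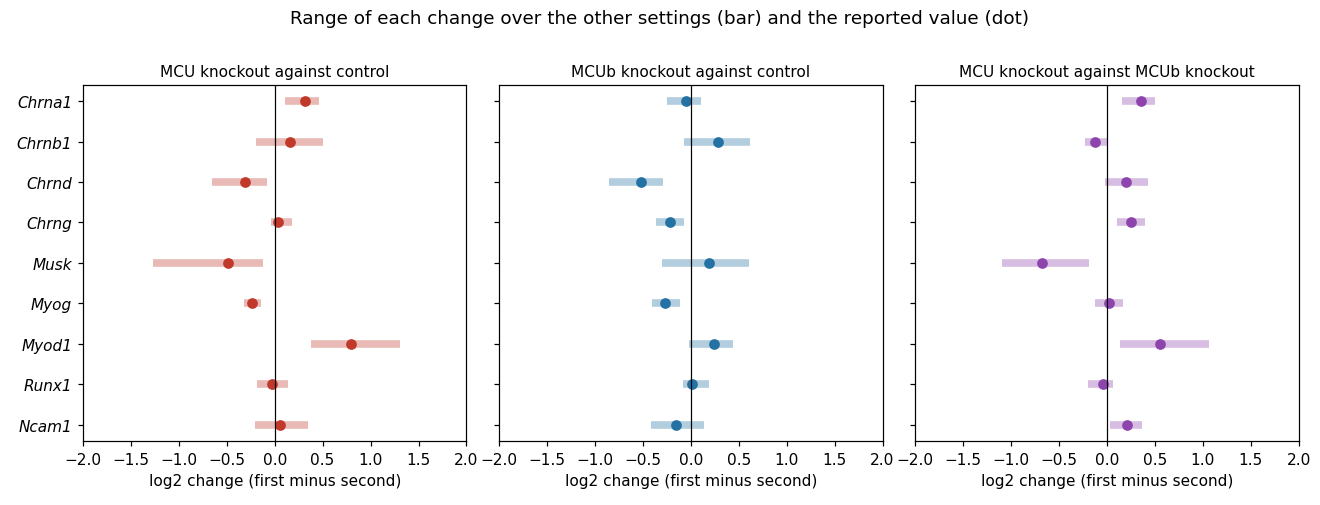
Range of the log2 change (x axis, first group minus second) of each of the 9 genes (y axis) over the other settings (bars: 18 settings, 17 for Chrnd and Chrng) with the reported value (dots). The bar for Myod1 in the MCU knockout runs from 0.37 to 1.30 and that for Musk from -1.27 to -0.12.

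Under the other settings, which changed the normalization, the filter, the weighting, the fit or the arrays included, 0 of 480 values of the 9 genes passed an adjusted p of 0.05 in limma, and the lowest was 0.180. At an unadjusted p under 0.05 there were 10 of 480, shared among Myod1, Musk, Chrnb1 and Chrnd, the last of them below background. The plot of ranges over the settings shows that Myog in both comparisons with control, and Chrna1, Musk and Myod1 in the MCU knockout, kept their sign in every one of them. Several settings cannot move a fitted change and so cannot turn its sign. These are the filter, the intensity trend, the replicate block, averaged probe sets, fits of 2 groups and the omission of an array outside the comparison. The settings are therefore not independent checks.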

How the data were processed

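RNA of 9 tibialis anterior samples was hybridised after amplification with a kit for small inputs, per the labels' protocols, and processed by the authors in Affymetrix Expression Console, with version, summarisation and normalization not given in the sources used here. The deposited values were read as log2 from their range (2.33 to 19.9) and used as they were. Of 28846 features, 6640 controls were left out and 22206 probe sets tested, of which 19572 were named through the RefSeq gene table of GRCm38.p6. All 9 arrays entered 1 fit of 3 group means in limma 3.58.1 (R 4.3.3), with 6 residual degrees of freedom and Benjamini-Hochberg adjustment over all probe sets at 0.05. The fit was tested on simulated data with independent normal scatter, no outlying array and changes larger than those fitted for the 9 genes. That test bears on the code and not on changes of the size seen here. The number of arrays limits the precision. The 9 genes, the 3 pathway lists and the marker lists were chosen with earlier results of these data known. From each pathway list the text names, for each comparison, the 3 genes with the lowest p, and a few others where it says so; genes of parallel pattern are the 3 with the highest correlation. The other settings were quantile normalization, median centring, a filter on dim probe sets, array weights, a Y-linked covariate, a replicate block, an intensity trend, averaged probe sets, fits of 2 groups and the omission of each array.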

Additional observations from a re-analysis of the deposited data

Results flagged for a closer look

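Tnfrsf12a differed between the knockouts by 2.05 on the log2 scale (MCU knockout minus MCUb knockout, SE 0.34, adjusted p = 0.0489 in limma), so its changes against the shared controls, -0.96 and -3.01, differed from each other by a test of the difference itself. All 3 MCU knockout arrays (12.80 to 13.33) lay above all 3 MCUb knockout arrays (10.75 to 11.63). Over 18 other settings the difference ran from 1.89 to 2.33 and its adjusted p from 0.0120 to 0.290, passing in 9 of them. Sex was unbalanced between the knockouts, and with the Y-linked covariate the difference was 2.17 and did not pass (adjusted p = 0.0664 in limma).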

How the results depend on the processing

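None of the 9 genes passed the threshold in limma under any of the 18 other settings, but 13 of their 27 changes turned sign under at least 1 of them, and the cause was not tested. Values of Chrnd and Chrng here are differences of signal below background. With array weights the change in the MCU knockout was -0.10 for Chrnb1, -0.044 for Chrng and 0.061 for Runx1, and 61 probe sets differed between the knockouts, against 35. With the Y-linked covariate 16 probe sets passed in the MCU knockout, against 31, no pathway gene (0) passed between the knockouts, and the change in the MCUb knockout was -0.20 for Musk and -0.056 for Runx1. After quantile normalization Runx1 was at -0.0026 in the MCUb knockout. With only the arrays of both groups, 1 probe set and 0 pathway genes passed in the MCUb knockout, against 5 and 1. The 1 pathway gene called between the knockouts was lost (0) after centring and with the replicate block.

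Same-numbered arrays did not deviate together (correlations of -0.12 to 0.09 over 9 pairs, as for arrays of different number), so the replicate number was not taken as a pairing. With it as a block 24, 5 and 28 probe sets passed, against 31, 5 and 35, and 0 of the 9 genes.

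Leaving out 1 array at a time, 20 to 98 probe sets passed in the MCU knockout (fewest without MCU knockout replicate 3, most without control replicate 2), 0 to 20 in the MCUb knockout (none without control replicate 1, MCUb knockout replicate 1 or MCUb knockout replicate 3, most without control replicate 2) and 13 to 43 between the knockouts, with 0 to 1 pathway genes in each of the last pair. In the MCU knockout the change then ran from -0.19 to 0.50 for Chrnb1, -0.037 to 0.18 for Chrng, -0.18 to 0.14 for Runx1 and -0.20 to 0.34 for Ncam1. In the MCUb knockout it ran from -0.25 to 0.11 for Chrna1, -0.072 to 0.62 for Chrnb1, -0.31 to 0.61 for Musk, -0.015 to 0.44 for Myod1, -0.082 to 0.19 for Runx1, -0.41 to 0.13 for Ncam1 and -0.43 to 0.13 for Chrne. Between the knockouts it ran from -0.021 to 0.42 for Chrnd, -0.12 to 0.17 for Myog and -0.20 to 0.068 for Runx1. With 3 arrays a group the data do not tell apart the changes within a printed interval. Chrnd and Chrng, and in part Runx1, Myog and the lower Myod1 values, are limited by background.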
